A study of Mus musculus with 10 samples.

Results

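Macrophages take up dead cells and debris, present antigen and secrete enzymes and cytokines, and they are common among the immune cells of sarcomas. The 33 genes described here are genes that macrophages are known for, taken by name from a list of symbols. All 33 were found among the 56750 features of the deposited count table, and all 33 were among the 24743 genes that passed the filter on low counts and were tested. They were followed in bulk RNA-seq of 2 mouse sarcoma models. The dFLEx group held 3 tumors (170019, 170024 and 170025) of dFLEx CDS +/- mice. These mice carry in Rosa26 an HA-tagged CIC::DUX4 fusion under the broadly active CAG promoter. The fusion is the driver of CIC::DUX4 sarcoma and stays silent until Cre and FLP recombinases act on it. Tumors follow electroporation of plasmids for both recombinases into a calf muscle. The KP group held 2 sarcomas (3800 and 3802) of mice with the genotype KRASloxP-STOP-loxP-G12D; p53fl/fl, a genotype without the fusion. The labels give no age, sex or treatment, and how the KP tumors were induced is not given in the sources used here. RNA came from whole frozen tumors, which hold cancer cells together with host cells.

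Macrophages grow out of monocytes or of cells seeded before birth, under the growth factors CSF1 and IL-34, which share the receptor encoded by Csf1r. The factor PU.1, encoded by Spi1, opens the genes of the lineage. Macrophages in tissue are the main source of C1q, the first component of the classical complement pathway, and carry Fc receptors, scavenger receptors and a large set of lysosomal proteins. In bulk tissue fewer macrophages and less of an mRNA per macrophage cannot be told apart.

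The libraries were not alike. Each RNA had been divided into 2 duplicates before library preparation, and the table has columns for 9 of the 10 labelled libraries. For 3802 only the first duplicate could be used. Totals ran from 20503474 to 46302223 counts per library, and the counts of a tumor's libraries were added up. Levels are given as counts per 1000000 counts (CPM) after TMM scaling of the tumors, unless stated otherwise. The single library of KP tumor 3802 had the lowest total but the most features with a count, 36904 against 24280 to 31768 in the others. Its mean level over 2007 olfactory and vomeronasal receptor genes, which serve here as a gauge of stray reads, was 0.106 CPM per kilobase, against 0.00276 to 0.0238 in the other tumors. The CIC::DUX4 feature stood at 105 CPM in 170019, 202 in 170024 and 423 in 170025, at 0 in 3800 and at 0.244 (6 counts) in 3802, which matches the labels. Between duplicates of 1 tumor, members with at least 100 counts differed by a median of 1.03- to 1.16-fold. The largest such difference was 1.91-fold, for Fcgr3 in 170019.

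Most of the 33 genes stood lower in the dFLEx tumors than in the KP tumors. The log2 fold change of dFLEx against KP was below 0 for 30 of 33 members, and its median was -1.26, beside -0.18 over all 24743 genes tested. For 19 members every dFLEx tumor lay below both KP tumors in CPM, against 11.7% of all genes tested. Cybb, Msr1, Fcgr1, C1qb, Adgre1 and Lyz2 were among these 19. For 1 member, Nos2, the KP tumors both lay below the whole dFLEx group (13.7% of all genes tested). For the other 13, which included Cd68, Mrc1, Cd163, Apoe and Gpnmb, the groups overlapped.

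No member passed the test across all genes. edgeR's quasi-likelihood test on tumor sums, with Benjamini-Hochberg adjustment over all genes tested and a threshold of 0.05, called 0 of 33 members, and 0.182% of all genes (25 higher and 20 lower). The smallest adjusted p among the members was 0.144, for Cybb. At an unadjusted p under 0.05 there were 16 members, all lower in dFLEx, against 4.93% of all genes tested in that direction. DESeq2 on the same tumor sums called 8 members, all lower (3.6% of the 18505 genes to which it gave an adjusted p): Cybb, Fcgr1, Msr1, C1qa, C1qb, Arg1, Adgre1 and Mpeg1. Fits that use the 9 libraries in place of the 5 tumors called more. All called members were lower in dFLEx: 18 in edgeR (8.88% of all genes tested), 15 with the duplicate number as a block (6.54%) and 8 in limma-voom with a random effect for the tumor (1.17%). DESeq2 on 9 libraries called 19 (26.1% of all genes in either direction), 18 lower and Nos2 higher. These fits, other than limma-voom, take duplicates of 1 RNA for independent samples. For a single value compared over 3 tumors against 2, the exact two-sided rank-sum test cannot give a p below 0.2. With a dFLEx tumor left out, fewer members reached an unadjusted p under 0.05 than with all 5 tumors. The median of the members was then -1.35 without 170019, -1.33 without 170024 and -1.45 without 170025. The medians of all genes in these fits were -0.16, -0.072 and -0.26. Without 3800 the median of the members was -1.11 and that of all genes -0.074. Without 3802 the median of the members was -0.87 and that of all genes 0.34, so the members lay 1.21 below all genes, against 1.08 with all 5 tumors. Set against each KP tumor alone, all 3 dFLEx tumors lay below 3800 for 21 members (63.6%, against 28.5% of all genes) and below 3802 for 25 members (75.8%, against 37.6%).

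**Figure D1:**
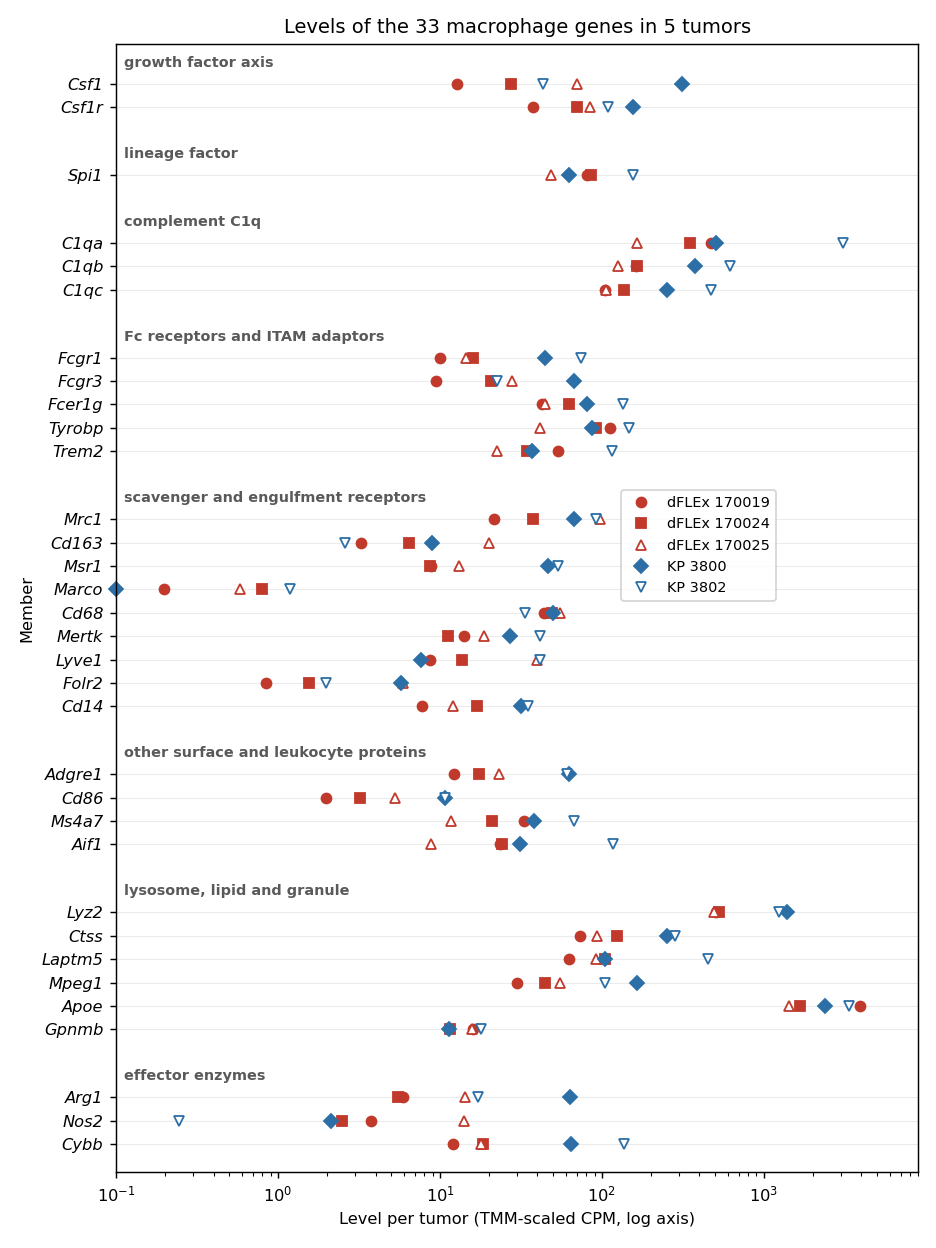
Level of each of the 33 genes (TMM-scaled CPM, log axis) in the 3 dFLEx tumors (red) and the 2 KP tumors (blue), grouped by role, with 1 symbol per tumor. Blue symbols lie to the right of all red ones for 19 genes and to the left of them for Nos2, and Marco in KP 3800, at 0, is drawn at the left edge.

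The promoters of the list are shown because Spi1 is itself a member and PU.1, its product, binds DNA at a GAGGAA core. RefSeq promoters (GRCm38.p6, 250 bases before to 50 after the gene start) were at hand for 22 of the 33 members, in 27 entries. GAGGAA was searched on both strands, so that it also appears as TTCCTC. It was found in 16 of the 27 member promoters (59.3%), against 28.3% of all 32851 promoters of the same length. The E-box CACGTG was found in 0 of the 27 (7.15% of all promoters) and the AP-1 site TGANTCA in 6 (22.2%, against 7.81%). These are matches of letters and do not show binding. Fcgr1, C1qb and C1qc are given as members whose groups did not overlap, and Mrc1 as a member whose groups overlapped and whose promoter held the core 3 times. Each line gives the 200 bases just before the gene start, 5′ to 3′ on the strand of the gene, with the core in capitals.
Fcgr1 (chr3:96293970-96294169, minus strand): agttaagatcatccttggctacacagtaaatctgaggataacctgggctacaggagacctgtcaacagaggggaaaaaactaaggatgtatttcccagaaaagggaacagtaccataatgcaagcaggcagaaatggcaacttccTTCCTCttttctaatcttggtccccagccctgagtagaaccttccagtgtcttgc
C1qb (chr4:136886201-136886400, minus strand): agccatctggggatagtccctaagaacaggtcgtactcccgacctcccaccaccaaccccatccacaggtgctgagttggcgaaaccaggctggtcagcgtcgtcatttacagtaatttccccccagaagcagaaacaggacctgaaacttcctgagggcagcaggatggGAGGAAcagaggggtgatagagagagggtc
C1qc (chr4:136892915-136893114, minus strand): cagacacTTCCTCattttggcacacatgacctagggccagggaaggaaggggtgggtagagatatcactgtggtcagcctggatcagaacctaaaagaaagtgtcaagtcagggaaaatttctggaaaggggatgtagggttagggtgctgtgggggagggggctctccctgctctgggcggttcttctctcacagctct
Mrc1 (chr2:14229214-14229413, plus strand): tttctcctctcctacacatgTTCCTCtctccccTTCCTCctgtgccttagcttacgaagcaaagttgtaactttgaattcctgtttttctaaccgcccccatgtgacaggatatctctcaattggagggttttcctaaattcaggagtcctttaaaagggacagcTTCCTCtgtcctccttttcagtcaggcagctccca
The first base of the core lay 55 bases before the gene start in Fcgr1, 30 in C1qb and 193 in C1qc. The 14 members with the core in a promoter had a median log2 fold change of -1.36, and the 8 members without it had -1.17.

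The growth factor Csf1 spread widely in both groups. Its level was 12.8, 27.6 and 70.3 CPM in 170019, 170024 and 170025, 311 in 3800 and 43.0 in 3802. KP tumor 3800 stood far above the rest, and the groups overlapped. In edgeR the difference was -2.26 on the log2 scale (SE 0.97, adjusted p = 0.466), and it was -0.05 without 3800. The receptor Csf1r stood at 37.3, 69.7 and 84.9 CPM in the dFLEx tumors and at 156 and 109 in the KP tumors. The groups did not overlap in CPM, with means of 64.0 ± 24.3 (SD, n = 3) and 132 ± 32.9 (SD, n = 2). In TPM they overlapped, at 46.5 in 170025 and 43.6 in 3802. In edgeR the log2 fold change of Csf1r was -1.05 (SE 0.58, adjusted p = 0.650), or -0.60 without 3800. Of the exonic bases of Csf1r, 15.1% are shared with Hmgxb3 on the other strand, and reads there were not counted. Hmgxb3 stood at 6.97, 10.8 and 50.2 CPM in dFLEx and 38.7 and 6.22 in KP. Il34, the gene of the other ligand of this receptor and no member of the list, stood apart more clearly, at 8.04, 6.19 and 2.90 CPM in dFLEx and 67.1 and 63.4 in KP. Its log2 fold change was -3.52 (SE 0.65, adjusted p = 0.0936). In all, 119 genes of 10 related lists outside the members were tested, and edgeR called 0 of them. At an unadjusted p under 0.05 there were 16 higher and 20 lower in dFLEx, against 5.65% and 4.93% of all genes tested. DESeq2 on tumor sums called 13 higher and 12 lower, against 4.65% and 3.6% of all genes. Of the 6 genes of the CSF1 and CSF2 pathway, 5 had a log2 fold change below 0, and the highest was Csf3 at 0.22, a gene under 0.5 CPM in every tumor.

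The lineage factor Spi1 overlapped between the groups in CPM but not in TPM. Its level was 81.1, 85.9 and 48.6 CPM in the dFLEx tumors, 63.0 in 3800 and 157 in 3802. In CPM KP tumor 3800 thus lay between dFLEx tumors, and the log2 fold change of -0.61 (SE 0.62, adjusted p = 0.878) turned to 0.21 without 3802. In TPM Spi1 stood at 53.1, 73.9 and 57.1 in dFLEx and at 79.8 and 134 in KP. Among 12 other transcription factors of macrophages the median was -0.49. Irf8, a factor of monocyte and macrophage development, was the lowest (-1.67) and Pparg, a nuclear receptor of lipid metabolism, the highest (1.70), and neither overlapped between the groups.

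The 3 chains of C1q, whose genes lie side by side on chromosome 4 (C1qb at chr4:136607440-136613498, C1qc at chr4:136617115-136620376 and C1qa at chr4:136623228-136626114, GRCm39), were lower in all 3 dFLEx tumors than in either KP tumor. C1qb stood at 161, 166 and 126 CPM in dFLEx, 375 in 3800 and 621 in 3802. C1qc followed it closely, at 104, 137 and 106 CPM in dFLEx and 252 and 472 in KP. C1qa was less even, at 475, 352 and 165 CPM in dFLEx, 509 in 3800 and 3099 in 3802. So for C1qa dFLEx tumor 170019 came close to KP tumor 3800, while 3802 stood far above. The log2 fold changes were -1.72 (SE 0.53) for C1qb, -1.65 (SE 0.54) for C1qc and -2.45 (SE 0.82) for C1qa, with adjusted p of 0.263 to 0.316 in edgeR. The chains pair in fixed proportion in the protein, and the C1qb to C1qc ratio was near even across tumors, at 1.19 to 1.54. The C1qa to C1qb ratio ran from 1.30 in 170025 to 4.99 in 3802. Without 3802 the log2 fold change of C1qa was -0.61, that of C1qb -1.29 and that of C1qc -1.10.

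Other complement genes did not follow C1q. Of 11 tested outside the list, 7 had a log2 fold change above 0 and 4 below. C1ra, which encodes a protease of the C1 complex, was the highest, at 79.1, 59.9 and 117 CPM in dFLEx and 5.35 and 12.4 in KP (log2 fold change 3.26, SE 0.73, adjusted p = 0.135). Cfp, the gene of properdin, was the lowest at -2.06. Its level was 364 CPM in 3802 and 32.1 to 57.9 in the other tumors. So of the C1 complex the recognition chains stood lower in dFLEx, while C1ra, named as the highest of the 11 genes, stood higher.

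The Fc receptors, which bind antibody, were grouped with Fcer1g and Tyrobp, adaptors that signal through ITAM motifs. Trem2, which is not an Fc receptor, was placed in the same group. Within this group Fcgr1 differed the most. The high-affinity IgG receptor Fcgr1 stood at 9.98, 16.0 and 14.4 CPM in dFLEx, 44.6 in 3800 and 74.5 in 3802. This is 13.5 ± 3.12 (SD, n = 3) against 59.5 ± 21.1 (SD, n = 2), with a log2 difference of -2.14 (SE 0.58, adjusted p = 0.206). Fcer1g, the shared signalling chain, was lower without overlap as well, at 42.6, 62.6 and 44.8 CPM against 80.9 and 135 (log2 fold change -1.11). The other 3 overlapped in CPM: Fcgr3, Tyrobp and Trem2, at log2 fold changes of -1.22, -0.52 and -1.04. Without 3800 that of Fcgr3 was -0.05, and without 3802 those of Tyrobp and Trem2 were -0.07 and 0.02. Of these 3 only Fcgr3 overlapped in TPM as well. Tyrobp stood at 297, 320 and 197 TPM in dFLEx and at 447 and 512 in KP. Trem2 stood at 19.1, 16.3 and 14.4 TPM in dFLEx and at 25.4 and 53.7 in KP. For Fcgr3, 11.1% of the 50-base windows of the transcript also occur in Fcgr2b, and reads from such stretches may not be assigned. The log2 fold change was below 0 for all 12 other genes of Fc receptor and ITAM signalling (median -0.86). The lowest was Clec7a (-2.87), a receptor for fungal glucans, and the highest Inpp5d (-0.52).

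Among the scavenger and engulfment receptors 7 of 9 had a log2 fold change below 0, and the groups overlapped for 6 of 9. Msr1, the class A scavenger receptor, stood at 8.81, 8.69 and 13.2 CPM in dFLEx and at 46.5 and 53.2 in KP, a log2 difference of -2.29 (SE 0.56, adjusted p = 0.172). Mertk, which recognizes dying cells, lay at 14.1, 11.2 and 18.7 CPM against 27.1 and 41.4 (log2 fold change -1.23), and Cd14, the co-receptor for lipopolysaccharide, at 7.76, 17.0 and 12 CPM against 31.7 and 35.0 (log2 fold change -1.45). These 3 were lower in dFLEx without overlap between the groups (11.7% of all genes tested). Cd68, a membrane protein of late endosomes and lysosomes, did not show a lower level in dFLEx, at 44.2, 49.4 and 54.9 CPM against 50.2 and 33.6. Its log2 fold change was 0.24 (SE 0.55, adjusted p = 0.950) and changed sign on library totals (-0.034).

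The mannose receptor Mrc1 and the hemoglobin scavenger receptor Cd163, often used as markers of tissue-resident or alternatively activated macrophages, were highest in a dFLEx tumor. Mrc1 stood at 21.5, 37.4 and 97.4 CPM in dFLEx and 67.1 and 91.8 in KP. Cd163 stood at 3.23, 6.43 and 20.2 CPM in dFLEx and 8.91 and 2.60 in KP. Tumor 170025 was the high one for both genes, and the groups overlapped. The log2 fold changes were -0.61 (SE 0.73) and 0.79 (SE 0.94), and without 170025 they became -1.45 and -0.25. Lyve1, a hyaluronan receptor also found on lymphatic vessels, was at 39.6 CPM in 170025 and 41.4 in 3802 and at 7.62 to 13.8 in the other 3 tumors, and Folr2, a folate receptor, was at 0.846 to 5.88 CPM over the 5 tumors. Of the exonic bases of Folr2, 63.1% are shared with another annotated gene, and reads there were not counted. Markers of lymphatic endothelium summed to 100.1 to 198 CPM in dFLEx and to 218 and 86.8 in KP, and their part in the Lyve1 values was not tested. Marco, a scavenger receptor of alveolar and splenic macrophages, was close to absent, with 0 counts in 3800, 29 in 3802 and 8, 46 and 46 in the dFLEx tumors. Its log2 fold change was -0.14 (SE 1.83).

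Of the other surface and leukocyte proteins, all 4 were lower in the dFLEx tumors without overlap (11.7% of all genes tested). Adgre1, an adhesion receptor and a standard marker of mouse macrophages, stood at 12.2, 17.5 and 23.2 CPM in dFLEx and at 62.6 and 61.1 in KP. This is 17.6 ± 5.53 (SD, n = 3) against 61.9 ± 1.11 (SD, n = 2), with a log2 difference of -1.81 (SE 0.56, adjusted p = 0.276). Cd86, which costimulates T cells, lay at 1.97, 3.21 and 5.27 CPM against 10.7 and 10.7. The calcium-binding protein Aif1 stood at 23.6, 24.2 and 8.77 CPM against 31.2 and 118, and Ms4a7, a membrane protein of unsettled function, at 33, 21.1 and 11.6 CPM against 37.9 and 67.0. For Aif1 and Ms4a7 the gap between the groups was narrow, and 3802 was the high tumor. The log2 fold changes were -1.62 for Cd86, -1.98 for Aif1 and -1.26 for Ms4a7, with adjusted p of 0.404 to 0.602.

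Lyz2, the lysozyme of myeloid cells, varied the least within the dFLEx group in CPM, though not in TPM (680, 931 and 1189). It stood at 507, 529 and 495 CPM in dFLEx and at 1396 and 1232 in KP. The means were 510.2 ± 17.1 (SD, n = 3) and 1314 ± 116 (SD, n = 2), and the log2 fold change was -1.36 (SE 0.48, adjusted p = 0.35). With each tumor left out in turn it ran from -1.43 to -1.11. The copy Lyz1 shares 7.30% of the 50-base windows of the Lyz2 transcript and stood at 6.34 to 16.3 CPM. The lysosomal protease gene Ctss lay at 73.5, 124 and 93.3 CPM in dFLEx and at 252 and 282 in KP, and Mpeg1, which encodes a pore-forming protein, at 29.7, 44.6 and 54.9 CPM against 166 and 105. Neither overlapped, and the log2 fold changes were -1.46 and -1.65. Laptm5, a lysosomal membrane protein of leukocytes, barely separated, at 63.0, 104 and 92.5 CPM against 104 in 3800 and 453 in 3802, and its log2 fold change of -1.69 became -0.25 without 3802.

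Apoe and Gpnmb, genes of lipid-laden macrophages that other cells also express, overlapped between the groups in CPM. Apoe carried 30.2% to 66.3% of the summed level of the list. In CPM it was highest in a dFLEx tumor, with 3916 in 170019, 1672 in 170024 and 1429.8 in 170025, against 2377 and 3374 in KP (log2 fold change -0.30, SE 0.61). In TPM both KP tumors, at 3795 and 3645, lay above the dFLEx tumors, at 3230, 1813 and 2115. Gpnmb, a glycoprotein of lysosomes, lay at 11.5 to 15.9 CPM in dFLEx and 11.4 and 17.9 in KP (log2 fold change -0.02, SE 0.58). With so large a share, Apoe set much of the summed level of the 33 members, which was 5906, 3787 and 3290.4 CPM in the dFLEx tumors and 6806 and 11171 in the KP tumors. Without Apoe it was 1990.5, 2115 and 1861 CPM against 4429 and 7798, so that the dFLEx tumors lay close together and well below both KP tumors.

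The effector enzymes held both the lowest and the highest fold change of the list. Cybb (chrX:9301491-9354010, GRCm39) encodes the catalytic subunit of the phagocyte NADPH oxidase. It stood at 12.1, 18.4 and 17.9 CPM in dFLEx and at 64.0 and 136 in KP. The means were 16.1 ± 3.50 (SD, n = 3) and 100.2 ± 51.1 (SD, n = 2), and edgeR gave -2.63 on the log2 scale (SE 0.60, adjusted p = 0.144). It stayed between -2.91 and -1.97 with any tumor left out.

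Arg1 (chr10:24791119-24803382) and Nos2 (chr11:78811613-78851080) encode enzymes that compete for arginine, arginase making ornithine and inducible nitric oxide synthase making nitric oxide, and they differed between the groups in opposite directions. Arg1 was at 5.87, 5.51 and 14.3 CPM in dFLEx and at 63.4 and 17.2 in KP (log2 fold change -2.24, SE 0.77, adjusted p = 0.334). Nos2 was at 3.76, 2.48 and 14.1 CPM in dFLEx and at 2.11 and 0.244 in KP (log2 fold change 2.50, SE 1.18, adjusted p = 0.537). Without 3800 the log2 fold change of Arg1 was -0.84, and that of Nos2 ran from 1.39 without 170025 to 4.96 without 3800. The groups did not overlap for either gene in CPM, though for Nos2 the gap between 170024 and 3800 was small. In TPM the groups overlapped for both genes. The Arg1 to Nos2 ratio of levels was 1.56, 2.22 and 1.01 in the dFLEx tumors, 30.1 in 3800 and 70.7 in 3802, so no dFLEx tumor came near either KP tumor. The Nos2 count in 3802 was 6, below the 0.472 CPM that stray reads at the rate of the receptor genes would give over its exons, and the ratio for 3802 rests on it. Neither gene is confined to macrophages, and their level per macrophage is not known from bulk RNA.

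**Figure D2:**
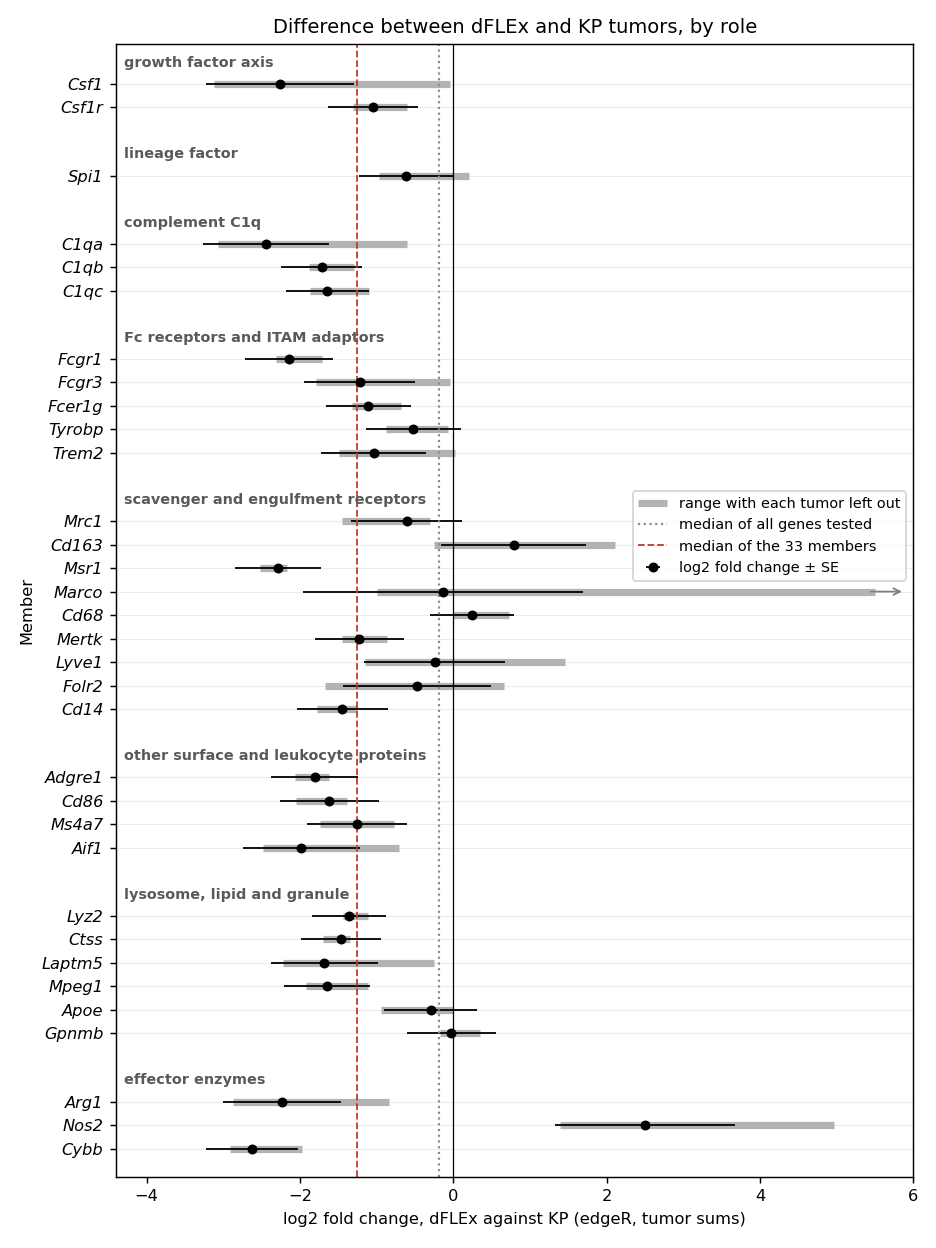
log2 fold change of dFLEx against KP for each member (black points, bars are the standard error) from edgeR on tumor sums, with the range obtained by leaving out each of the 5 tumors in turn (grey). Most points lie left of the median of all genes tested (dotted, -0.18), the median of the members is dashed (-1.26), and the grey bar of Marco runs off the right edge, where KP is 3800 alone with 0 counts.

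Compared per length as TPM, the order of the genes was much the same in the 2 models. Apoe came first in dFLEx (2386 ± 746, SD, n = 3), followed by Lyz2 (933 ± 255), C1qa (697 ± 170.3) and C1qb (327 ± 57.3). In KP C1qa (4277 ± 3685, SD, n = 2), Apoe (3720.0 ± 105), Lyz2 (2892 ± 1031) and C1qb (1247 ± 101) filled the same 4 places, and the first 3 cannot be ordered beyond their spread. Marco came last in both. Defining markers of macrophages were all present in dFLEx tumors, with Csf1r at 28.6 ± 17.6 TPM, Adgre1 at 14 ± 8.12 and Cd68 at 97.0 ± 38.4, against 67.8 ± 34.2, 54.8 ± 15.9 and 99.1 ± 52.7 in KP.

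The 3 dFLEx tumors did not carry the list in equal measure, and no tumor was highest throughout. Tumor 170025 was the highest dFLEx tumor for 15 members, 170024 for 12 and 170019 for 6. Csf1, Csf1r, Fcgr3, Mrc1, Cd163, Cd68, Lyve1, Folr2, Adgre1, Cd86 and Mpeg1 were lowest in 170019, higher in 170024 and highest in 170025, as was the CIC::DUX4 feature. These 11 are 33.3% of the list, near the 29.0% of all genes tested with that order. C1qa, Tyrobp, Trem2, Ms4a7 and Apoe had the opposite order, which is 15.2% of the list against 32.0% of all genes. Within 1 pair of tumors the members ranged from a log2 ratio of 2.80 (Folr2, 170025 over 170019) to -1.53 (C1qa).

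The GC content of the transcripts moved with this split. The 10 members that were lower in 170025 than in 170019 had a median GC content of 54.6%, and the 23 that were higher had 48.7%. Over all genes the 3 dFLEx tumors differed in the same sense, as genes with 55% GC stood above genes with 45% GC by a log2 difference of 0.24 in 170019 and 0.24 in 170024 and of -0.13 in 170025. The KP tumors differed as well, at -0.46 in 3800 and 0.087 in 3802. The part of this trend in the spread of the members was not tested. In the comparison of the models, the trends with GC content and transcript length were also taken out, tumor by tumor. This left the median of the members at -1.46, beside -0.30 over all genes. edgeR then called 0 members and 174 of all genes.

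**Figure D3:**
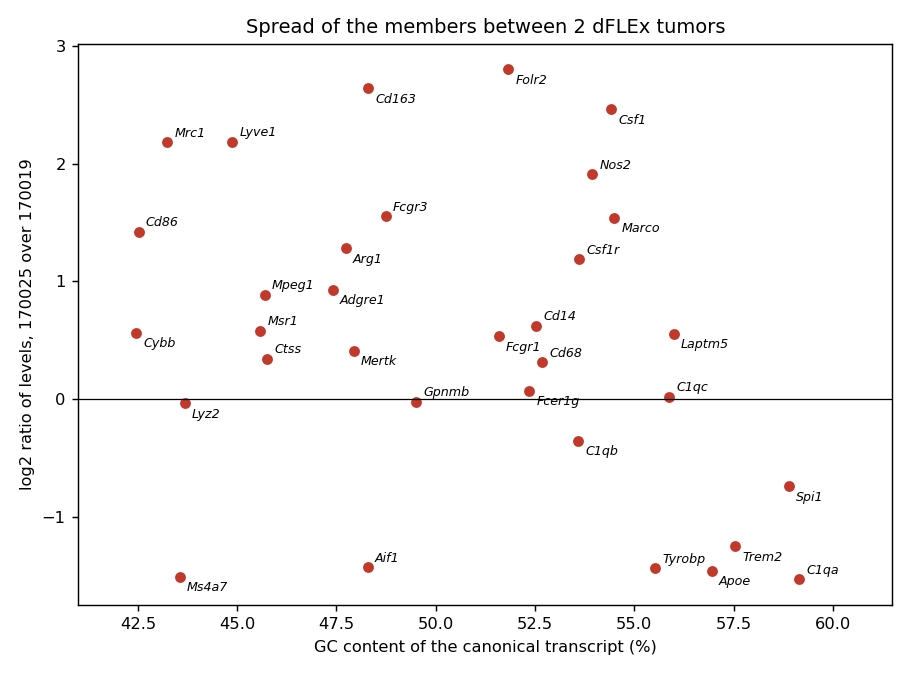
log2 ratio of the level in dFLEx tumor 170025 to that in 170019 for each member (vertical axis) against the GC content of its canonical transcript in percent (horizontal axis). Folr2, Cd163 and Csf1 are the highest points, and C1qa, Ms4a7 and Apoe the lowest.

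The KP tumors also differed from each other. Tumor 3802 was above 3800 for 21 of the 33 members (63.6%, against 53.4% of all genes tested), among them C1qa, Spi1, Trem2, Aif1, Laptm5 and Cybb. Tumor 3800 was above 3802 for Csf1, Fcgr3, Arg1, Nos2 and Cd163. For Adgre1, Cd86, Cd14, Lyz2, Ctss and Msr1 the 2 tumors differed by 1.00- to 1.14-fold, and for each of these 6 members all dFLEx tumors lay below. Tumor 3802 stood apart in other blood cell genes too. Markers of T cells summed to 66.0 CPM there and to 13.8 to 23.5 elsewhere, those of B cells to 42.5 against 3.69 to 6.81, and those of NK cells to 29.5 against 2.58 to 5.95. Whether these cells bear on the members' values in 3802 was not tested.

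Other gene lists of the myeloid lineage were set beside the members. Genes shared by all leukocytes followed the members, with 13 of 13 below 0, 9 of 13 lower without overlap (11.7% of all genes tested) and a median of -1.14. They ran from -2.00 for Cd52, a small surface glycoprotein, to -0.42 for Cd37, a tetraspanin. Monocyte genes had a median of -1.85, with 7 of 9 below 0. Ly6c2, a surface marker of inflammatory monocytes, was the lowest at -4.07, and rested on KP 3802 (74.6 CPM, against 6.18 in 3800 and 1.73 to 3.59 in dFLEx). Vcan, the gene of the matrix proteoglycan versican, was the highest at 2.25, and its groups overlapped. Genes of lipid-associated macrophages and lysosomes had a median of -0.70, from Spp1, the gene of osteopontin (-2.43), to Fabp4, a fatty acid carrier (2.28).

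Resident macrophage genes did not follow the members. They split 6 to 6 by sign, with a median of 0.06, and the groups did not overlap for 5 of 12 genes that were higher in dFLEx (13.7% of all genes tested) and 2 of 12 that were lower (11.7%). Cd209a, a C-type lectin, had the highest fitted value, with 36, 150 and 210 counts in dFLEx and 4 and 1 in KP. With so few counts in KP the size of this difference could not be resolved (adjusted p = 0.137 in edgeR). Timd4, a receptor for phosphatidylserine, was the lowest at -1.58. Inflammatory and regulatory mediators were also balanced, 7 above and 7 below 0, from Il12b (-3.80, at 0.101 to 0.124 CPM in dFLEx) to Retnla (2.69), a secreted protein of alternatively activated macrophages, which stood at 29.7, 53 and 27.6 CPM in dFLEx and at 7.67 and 3.70 in KP.

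Osteoclast genes, which macrophage precursors turn on when they fuse into bone-resorbing cells, stood the other way from the members. For 7 of 10 genes the dFLEx tumors all lay above the KP tumors (13.7% of all genes tested), and the median log2 fold change was 2.65. Atp6v0d2, a proton pump subunit, was the highest at 3.85 (SE 0.71, adjusted p = 0.0936), at 17.8, 22.1 and 16.4 CPM against 0.940 and 1.67. Calcr, the calcitonin receptor and a defining gene of mature osteoclasts, was under 1 CPM in all 5 tumors and the lowest at -1.60. The summed level of the list was 2881, 1793 and 825 CPM in dFLEx and 109 and 348 in KP. A single gene of the list, Ctsk, carried a large part of this sum in dFLEx. The Ctsk to Csf1r ratio of levels was 42.1, 13.6 and 4.73 in 170019, 170024 and 170025, and 0.121 and 1.17 in 3800 and 3802. Several genes of the list are also active outside osteoclasts, and which cells expressed them is not known from bulk RNA.

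Markers of other cells are given beside the members. Of 68 tested, edgeR called 0. At an unadjusted p under 0.05, 11 were higher and 8 lower in dFLEx (5.65% and 4.93% of all genes tested), and DESeq2 on tumor sums called 4 higher and 4 lower (4.65% and 3.6%). Lymphocyte markers had medians below 0, but only 3802 stood far above the dFLEx tumors in their sums. In 3800 the sums were 19.0 CPM for T cells, 3.94 for B cells and 5.95 for NK cells. The dFLEx tumors had 13.8 to 23.5, 3.69 to 6.81 and 2.58 to 5.70 CPM. For T cell markers the median was -2.02, 7 of 8 were below 0 and 5 of 8 lower without overlap (11.7% of all genes tested). B cell and NK cell markers had medians of -2.10 and -1.82, with all 5 of each below 0. Of these, 1 of 5 B cell and 2 of 5 NK cell markers were lower without overlap (11.7% of all genes tested). Skeletal myocyte markers were higher in dFLEx in 5 of 6 genes without overlap (13.7% of all genes tested), summing to 7689, 30488 and 8266 CPM against 1186 and 3799. Fibroblast markers summed to 1669, 2992 and 5659.8 CPM against 842 and 1163, and endothelial markers to 221, 315 and 552 against 146 and 86.7. Neutrophil markers summed to 78.3 CPM in 170024 and 37.3 in 3802 and to 2.32 to 8.36 in the others. Medians were 0.68 for neutrophil, -1.56 for dendritic cell, -0.65 for mast cell, -0.98 for lymphatic endothelial, 1.28 for endothelial, 1.53 for fibroblast, 2.57 for skeletal myocyte, -1.24 for keratinocyte and 0.10 for erythroid markers. The part of these cells in the members' levels was not tested.

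**Figure D4:**
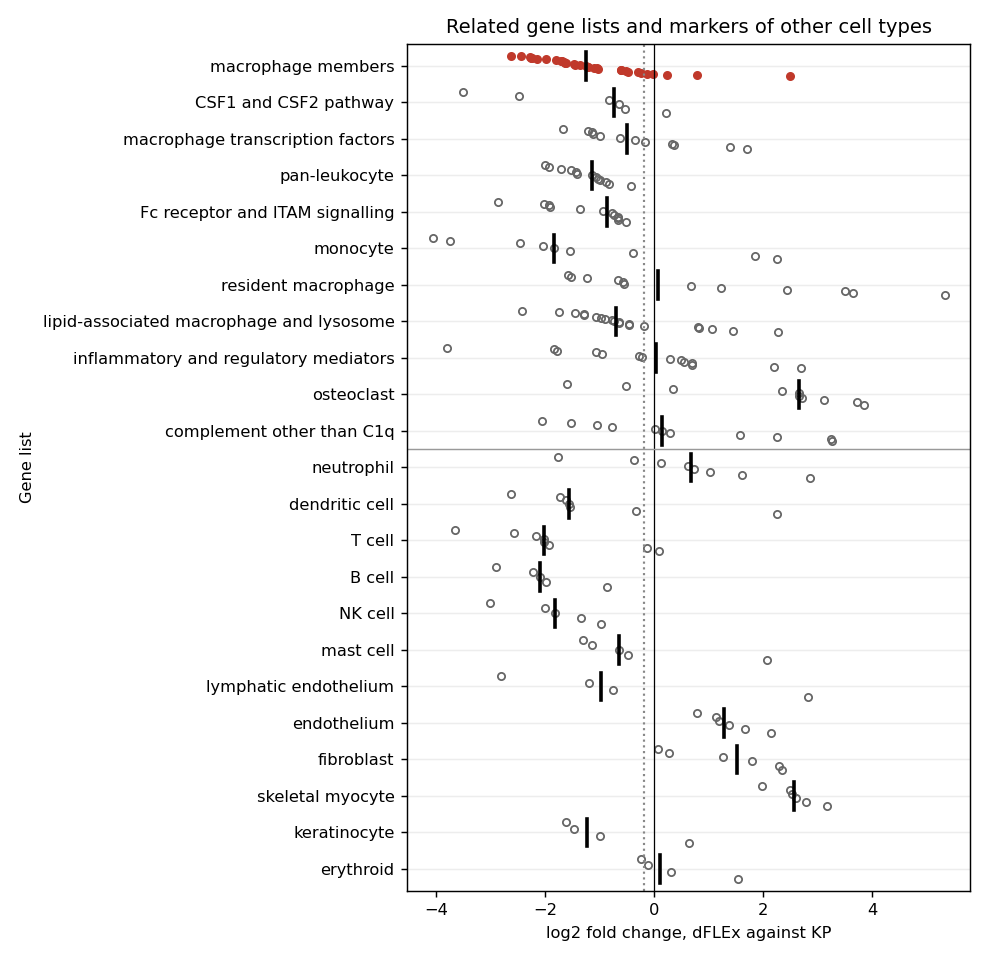
log2 fold change of dFLEx against KP (edgeR, tumor sums) for each gene of the macrophage list (red, top), of 10 related lists and of 12 marker lists of other cells (grey circles, below the line), with the median of each list as a black bar. The members, leukocyte and monocyte lists lie left of the median of all genes (dotted), and the osteoclast, skeletal myocyte, fibroblast and endothelial lists right of 0 in the median.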

How the data were processed

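RNA of 5 mouse tumors was sequenced as paired-end, rRNA-depleted libraries. The authors trimmed reads with Trimmomatic (version 0.39), aligned them with STAR (2.7.10a) to mm39 extended by the fusion construct, and counted them per gene with featureCounts (Subread 2.0.3). The deposited values are these raw counts. Per the file headers strand was ignored, both mates had to align and reads with several alignments were not counted. Each mate was counted as a read, so counting error is larger than totals imply. The table also holds the gene length, used for TPM.

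Each tumor was 1 replicate. Counts of its libraries were added up, filtered with filterByExpr, scaled by TMM and tested with edgeR (4.0.16) glmQLFit and glmQLFTest, with the Benjamini-Hochberg adjustment over 24743 genes and a threshold of 0.05. Standard errors were derived from the F statistic (size of the log2 fold change over its root). The labels do not say that tumors of a group came from separate litters or cohorts, and p-values measure the spread between these tumors. DESeq2 (1.42.0) and limma (3.58.1) served as alternatives. The procedure was run on simulated data with known changes, all of them larger than the fitted change of any member. This run does not show how well changes of the members' size are found. A count of 0 allows a true level of up to 3 counts, which is 0.0378 to 0.122 CPM of a tumor and covers counting error only. Gene symbols came from GENCODE M39 by Ensembl identifier (98.7% of features), and promoters came from RefSeq (GRCm38.p6).

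The 33 members and the gene lists were chosen with earlier results of these data known. Values in each tumor are given for the defining markers Csf1r, Adgre1, C1qa, C1qb, C1qc, Cd68, Mrc1, Cd163 and Lyz2, for members whose groups did not overlap and for the 3 largest and 3 smallest fold changes. Of each of the 10 related lists the genes with the highest and the lowest fold change are named, and the 12 marker lists are given by counts, medians and sums. Csf1, Spi1, Apoe, Gpnmb, Lyve1 and, outside the members, Ctsk were picked for per-tumor values after these were seen.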

Additional observations from a re-analysis of the deposited data

How the results depend on the processing

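Alternatives were a DESeq2 test, fits on the 9 libraries, other scalings, other filters, the first library of each tumor and each tumor left out in turn. Removal of trends with GC content and length, and the sum without Apoe, were added after seeing the data. Against 45 genes called over all genes, DESeq2 on tumor sums called 1528, edgeR on 9 libraries 3344, DESeq2 on 9 libraries 5042, limma-voom 543, no filter 880, a mean of at least 1 CPM 80 and trend removal 174. Leaving out a tumor gave 0 (170019 or 170024) to 414 (3802). The calls split 25 higher to 20 lower with TMM, 25 to 24 with DESeq2 size factors, 14 to 20 on library totals and 17 to 33 with the upper quartile. Against 0 members called, DESeq2 on tumor sums called 8, edgeR on 9 libraries 18, DESeq2 on 9 libraries 19 and limma-voom 8, and every other alternative without duplicates counted apart called 0.

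With the duplicate number as a replicate block, 2476 genes and 15 members were called. These numbers mark duplicates of 1 RNA and pair no tumors across groups. Under this block Marco was at 0.063, Lyve1 at 0.13 and Gpnmb at 0.077.

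The median of the members, -1.26, was -1.45 with DESeq2 on 9 libraries, -1.61 on library totals, -1.53 with the upper quartile, -1.49 with a mean of at least 1 CPM and -1.46 after trend removal, and with a tumor left out it ran from -1.45 (without 170025) to -0.87 (without 3802). Library totals moved the median of all genes from -0.18 to -0.47, so that the members' median lay 1.08 below that of all genes with TMM and 1.15 below it on totals. The summed level, a log2 ratio of -1.05, was -1.62 without Apoe. With Apoe and a tumor left out, the summed level ran from -1.41 (without 170019) to -0.63 (without 3802). Without 3802 the members' median lay 1.21 below that of all genes. Without 3800 or 3802 the KP group is 1 tumor, assumed to vary like the dFLEx tumors.

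Of the 33 members, 25 kept the sign of their fold change in every alternative, and 8 changed it in at least 1. With a tumor left out, Spi1 ran from -0.97 to 0.21, Trem2 from -1.49 to 0.023, Cd163 from -0.25 to 2.11, Folr2 from -1.68 to 0.66, Lyve1 from -1.15 to 1.46, Cd68 from -0.0045 to 0.72, Gpnmb from -0.17 to 0.35 and Marco from -0.99 to 8.06, the last against 0 counts in KP and thus set by the prior count. Cd68 was at -0.034 on library totals and at -0.049 after trend removal. Marco was at 0.24 in edgeR and 0.085 in DESeq2 on 9 libraries, at 2.35 in limma-voom and at 0.16 with no filter. Lyve1 was at 0.23 in limma-voom and 0.021 with no filter. Gpnmb was at 0.00084 in edgeR on 9 libraries, 0.059 in limma-voom, 0.14 with no filter and 0.028 with the first library of each tumor. The cause of these changes was not tested. Counts were low for Marco, at 0 to 46 per tumor, and for Nos2 in 3802, at 6. In the other tumors Nos2 had 143 to 1122 counts. For Folr2, 63.1% of the exonic bases are shared with another annotated gene, and reads there were not counted.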
